A study of Mus musculus with 12 samples.

Results

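The genes described here carry the signal of the gp130 family of cytokines: the receptor genes Il6st, Lifr, Osmr and Cntfr, the Janus kinase genes Jak1, Jak2 and Tyk2, and the feedback inhibitor gene Socs3. They are 8 genes picked by name, where the count table for the label Cre+ lists 9112 genes and the table for Cre- lists 14177. RNA was sequenced from dorsal root ganglion (DRG) neurons, the sensory neurons of the body, grown for 24 h in serum-supplemented F12 medium after purification on Percoll. The neurons came from male RiboTag mice, with 5 mice pooled per sample. The labels give their age as 3 to 6 months, and the study's methods name a younger range. All mice were homozygous for the Rpl22-HA allele (Rpl22HA/HA), which adds an HA tag to a protein of the large ribosomal subunit once Cre has acted on it. The mice labelled Cre+ also carried Runx3-Cre, in which Cre is driven from Runx3, a gene of proprioceptive neurons. Their Cre negative littermates served as the control for background, and by design have no tagged ribosomes. Each genotype gave 3 HA pull-downs, made to isolate RNA on HA-tagged ribosomes, and 3 inputs, made from 10% of the lysate before the pull-down. P-values here measure the spread between these 3 samples per group.

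gp130, the product of Il6st, is the signalling subunit shared by the receptors for IL-6, IL-11, LIF, CNTF, oncostatin M and related cytokines. LIFR pairs with gp130 to bind LIF, and also CNTF when the CNTF receptor alpha chain, made from Cntfr, is present. OSMR pairs with gp130 to bind oncostatin M and with the IL-31 receptor subunit to bind IL-31. Janus kinases held on the inner side of these receptors phosphorylate STAT3, which enters the nucleus, and SOCS3 binds gp130 and shuts the signal off. In sensory neurons this pathway is known for its part in the response to nerve injury and in axon growth.

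Socs3 is itself a gene that STAT3 switches on, which is why its upstream sequence is shown. Promoter windows from RefSeq on GRCm38.p6, from 250 bases before to 50 after a transcript start, were matched by symbol for all 8 genes and gave 14 windows. They were searched for TTCNNNGAA, the motif of STAT dimers, which reads the same on both strands and overlaps no other motif searched. Of the 14 windows, 1 held it, that of Socs3, and 8.30% of all 32851 mouse windows did. The capitals mark the first match in that window, which lies 154 to 146 bases before its transcript start, chr11:117969366. Any further matches in the window are not shown. RefSeq's span for the whole gene, given with its values further on, begins further upstream, so this match lies within that span. The stretch is chr11:117969502-117969530 on the minus strand, written 5′ to 3′.
Socs3: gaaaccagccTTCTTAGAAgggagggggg

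Total counts on listed genes ranged from 8886308 to 18633365 over the 12 libraries. Runx3, whose expression drives Cre, went against the labels. Its normalized count, the count per 1000000 after TMM scaling, was 22.8, 2.07 and 11.1 in the pull-downs labelled Cre+ and 20.8, 36.0 and 51.4 in those labelled Cre-, against 2.39 to 5.55 and 1.90 to 4.70 in the respective inputs. Its enrichment passed the test in the libraries labelled Cre- (log2 fold change 3.52 ± 0.43 SE, FDR = 0.000236 by edgeR) and not in those labelled Cre+ (1.55 ± 0.87, FDR = 0.309), and the difference between them did not pass (FDR = 0.302). The column names of the pull-downs labelled Cre+ also equal, apart from punctuation, the titles of those labelled Cre-. The study itself reports a significant overlap of pull-down enrichment between Runx3-Cre+ cultures and Runx3-Cre tissue. For Cre- cultures it reports a poorer consistency with that tissue, which is the order the labels give. The tissue data were not used here. Whether the pull-downs of both genotypes were exchanged cannot be told from these data, and an exchange would change which genotype each enrichment and difference belongs to. Samples are therefore called throughout by their labels. The pull-downs labelled Cre+ also resembled each other less than any other group did. The correlation of log2 values across genes between libraries was 0.685 to 0.831 among them and 0.913 to 0.975 within the other groups. The 10 neuron markers summed to 23824 to 28726 in the inputs labelled Cre- and to 48618 to 56236 in the pull-downs, with 3 called higher. The sums with the label Cre+ were 20619 to 27306 in the inputs and 22070 to 24286 in the pull-downs, with 2 called lower. All 6 proprioceptor markers were called higher in the pull-downs labelled Cre- (sums of 1251 to 1549 against 210 to 293), and 1 of the 5 listed for Cre+ was (351 to 527 against 179 to 242, without Pvalb). The 4 listed endothelial markers, without Cldn5, summed to 98.8 to 427 in the pull-downs labelled Cre+ against 47.8 to 83.2 in the inputs, with 1 called higher, and to 16.2 to 115.0 against 60.4 to 89.7 with the label Cre-. What part these cells had in the values below was not tested.

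In the inputs, which sample lysate RNA from all cells of the cultures, the order of levels was led by the leukemia inhibitory factor receptor. Normalized counts were divided by the length of merged exons so that genes could be compared. Merged exons join those of all transcripts of a gene (12.1 kb for Osmr and 2.78 kb for Cntfr), so the order depends on the lengths used. Per kb of exon, the input level of Lifr was 98.2 ± 36.1 (SD, n = 3) with the label Cre+ and 105.7 ± 20.0 with the label Cre-. Il6st followed with an input level per kb of 69.2 ± 20.2 and 75.9 ± 5.80. Jak1, the kinase on which gp130 signalling chiefly depends, stood at 39.8 ± 1.19 and 42.9 ± 2.18. These 3 genes had separate ranges in the inputs labelled Cre-, whereas Lifr (56.5 to 119) and Il6st (46.0 to 82.4) overlapped in those labelled Cre+. Scaling was done within each table, so levels were not tested between them.

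The other receptors and kinases were lower. The input level of Cntfr per kb was 11.2 ± 0.853 and 9.72 ± 1.01, and that of Osmr was 10.1 ± 4.31 and 10.4 ± 2.10. Socs3 was at 5.95 ± 0.944 and 5.07 ± 0.442, and Jak2 at 5.46 ± 1.87 and 6.07 ± 0.362. Neither Cntfr and Osmr nor Socs3 and Jak2 differed beyond their spread with the label Cre+. In the inputs labelled Cre-, Cntfr and Osmr overlapped and Jak2 (5.82 to 6.48) lay above Socs3 (4.81 to 5.58). The lowest was Tyk2, at 0.535 ± 0.224 in the inputs labelled Cre-.

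**Figure D1:**
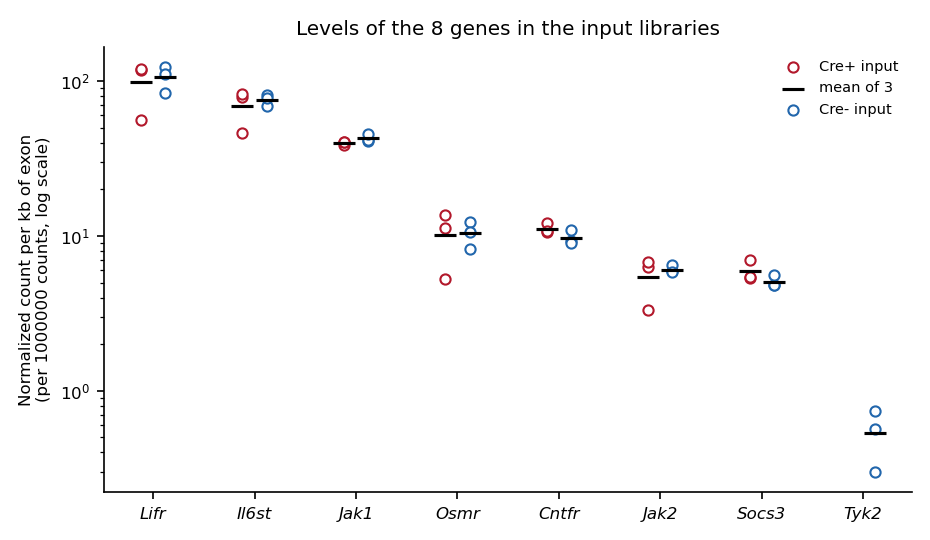
Normalized count per kb of exon (log scale) of each gene in the input libraries, with 3 libraries per genotype as points and their mean as a bar. Lifr, Il6st and Jak1 lie at 38.4 per kb or above in every input, and Osmr, Cntfr, Jak2 and Socs3 lie at 13.7 or below.

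The comparison of pull-down with input asks which transcripts are held in the pull-down more or less than their share in the lysate. For the label Cre+, 7 of the 8 genes were listed and tested, and none was called at an FDR below 0.1 with a 2-fold change by edgeR or by DESeq2. Without pull-down 2, Jak1 was called enriched and Socs3 depleted. Of all 8947 genes tested, 4.72% were called enriched and 2.19% depleted. Of the 7 genes 2, Lifr and Jak1, had an unadjusted p below 0.05, at an FDR of 0.196 and 0.163 by edgeR. The share of all genes below that p was not counted, so nothing is read from the 2. Of the 7, 5 had a positive log2 fold change. The median of the 7 was 0.50, and that of all genes tested was above 0 too, at 0.08. In 3 of the 7 every pull-down lay above every input, against 15.5% of all genes, and in 1 below, against 17.9%. In the libraries labelled Cre-, 7 of the 8 listed genes were tested. Jak1 was called enriched and Osmr depleted, against 6.01% and 5.83% of the 11526 genes tested. The median was 0.24 against -0.04 for all genes. In 3 of the 7 every pull-down lay above every input, against 18.2% of all genes, and in 1 below, against 18.6%. Because the RNA is from mixed cultures, fewer cells of a type and less RNA per cell cannot be told apart in any of these values.

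Il6st (GRCm38 chr13:112464070-112506860, plus strand), the gene for gp130, was abundant in both fractions. In the libraries labelled Cre+ its normalized count was 510.1, 880.4 and 914.8 in the inputs and 628.7, 1331 and 1312 in the pull-downs. Pull-downs 2 and 3 lay above every input and pull-down 1 within their range. Each pull-down lay above the input with the same column number, but a pairing by these numbers was not tested. The fold change was 0.50 ± 0.35 on the log2 scale (FDR = 0.400 by edgeR). It was 0.28 without input 1, 0.82 without pull-down 1 (FDR = 0.0911, under 2-fold) and 0.09 with scaling by library size alone. Input 1 was the lowest of the 3 inputs labelled Cre+ for Il6st, and it was the lowest for Lifr, Osmr, Jak1 and Jak2 as well. In the libraries labelled Cre- the inputs held 772, 898 and 858 and the pull-downs 957, 624 and 723. The groups overlapped, with a log2 fold change of -0.13 ± 0.17 (FDR = 0.640).

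Lifr (chr15:7090610-7197489, plus strand) lay above input in every pull-down of both labels. Its normalized count with the label Cre+ was 609, 1278 and 1287 in the inputs and 1737, 1621 and 1836 in the pull-downs. The pull-downs lay close together and the spread was among the inputs. The log2 fold change of 0.71 ± 0.30 did not pass (FDR = 0.196), and it was 0.43 without input 1 and 0.26 with scaling by library size alone. In the fit of all 12 libraries it was 0.72 and passed the FDR cutoff (0.0527), under 2-fold. The inputs labelled Cre- held 903, 1324 and 1189 and the pull-downs 1615, 1536 and 1555. This difference of 0.46 ± 0.16 on the log2 scale passed the FDR cutoff (0.0620 by edgeR) but stayed under 2-fold, so Lifr was not called. Its FDR over the alternative analyses ran from 0.0480 to 0.422.

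Osmr (chr15:6813568-6874968, minus strand), the gene for the oncostatin M receptor subunit which lies near Lifr on the same chromosome, was the receptor gene that was called. In the libraries labelled Cre- its normalized count fell from 99.5, 150.1 and 128.9 in the inputs to 70.4, 49.9 and 36.5 in the pull-downs. Every pull-down lay below every input. The log2 fold change was -1.27 ± 0.25 (FDR = 0.00445 by edgeR), and over the 14 alternative analyses it ran from -1.53 to -1.06, with FDR from 3.63e-05 to 0.0509. In the libraries labelled Cre+ the inputs held 64.3, 165.7 and 136.6 and the pull-downs 144.7, 140.0 and 154.8. The groups overlapped, and the fold change of 0.26 ± 0.38 on the log2 scale (FDR = 0.710) turned to -0.19 with scaling by library size alone and to -0.05 without input 1.

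Of the markers of other cells, those of Schwann cells had sums that separated pull-downs from inputs in the libraries labelled Cre-, as Osmr did. The 6 Schwann cell markers summed to 2753 to 4265 in the inputs and 1257 to 1650 in the pull-downs, with 1 of 5 tested called lower. The 6 fibroblast markers summed to 77.6 to 95.9 and 25.2 to 89.8, which overlap, with 1 of 5 called lower. The 4 listed macrophage markers, without Aif1 and C1qa, summed to 52.8 to 126 and 50.2 to 74.6, which overlap too, and none of 3 tested was called. The 6 satellite glia markers summed to 409 to 579 in the inputs and 400 to 608 in the pull-downs, again overlapping, with 1 of 4 called lower. Fabp7 was at 0 in at least 1 pull-down and Kcnj10 in at least 1 input. Sensory neurons known for itch also make Osmr, and 4 of 5 genes of their list were listed, without Nppb. These summed to 22.6 to 32.1 and 26.8 to 35.7, with 1 called higher and 1 lower. The median log2 fold change of the tested markers was -1.23 for Schwann cells, -1.21 for satellite glia, -0.81 for fibroblasts, -0.51 for the itch neuron list and 0.14 for macrophages. The part of these cells in the fall of Osmr was not tested. The 4 Schwann cell markers listed for Cre+ summed to 2392 to 3597 in the inputs and 1583 to 2254 in the pull-downs, and none was called.

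Cntfr (chr4:41657498-41697091, minus strand) encodes the alpha chain that makes a cell sensitive to CNTF. Its normalized count with the label Cre+ was 33.8, 29.6 and 29.8 in the inputs and 6.77, 17.7 and 22.1 in the pull-downs. Every pull-down lay below every input. The log2 fold change of -1.002 ± 0.61 did not pass (FDR = 0.344), and without pull-down 1 it was -0.61 (FDR = 0.382). The inputs labelled Cre- held 30.3, 25.8 and 25.1 and the pull-downs 27.2, 40.4 and 54.9. Here 2 pull-downs lay above every input and 1 among them (0.59 ± 0.27, FDR = 0.158). Without pull-down 1 the FDR was 0.0199, at a log2 fold change of 0.83 that remains under 2-fold, and without pull-down 3 the change was 0.34 (FDR = 0.479).

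Jak1 (chr4:101151974-101265282, minus strand) was enriched with the smallest FDR of the 7 tested genes. Its normalized count with the label Cre- was 298.8, 303.2 and 328.0 in the inputs and 876.7, 804.6 and 865.2 in the pull-downs. The groups stood far apart, and the change was 2.74-fold, 1.45 ± 0.14 on the log2 scale (FDR = 5.2e-05 by edgeR). It was called in each of the 14 alternatives, with log2 fold changes of 1.22 to 1.496. The inputs labelled Cre+ held 277.7, 291.1 and 293.6 and the pull-downs 829.4, 306.8 and 482.5. All pull-downs lay above all inputs, from barely above in pull-down 2 to far above in pull-down 1. The log2 fold change of 0.91 ± 0.35 did not pass (FDR = 0.163), and without pull-down 2 it was 1.21 and passed (FDR = 0.0834). Without pull-down 1 it was 0.49 (FDR = 0.224), and with scaling by library size alone 0.43 (FDR = 0.430). In the fit of all 12 libraries it was 0.91 and passed the FDR cutoff (0.0284), under 2-fold. The inputs averaged 287 ± 8.57 with the label Cre+ and 310 ± 15.8 with the label Cre-, on scales set within each table. Of the exons of Jak1, 0.0553% overlap Raver2 on the opposite strand, and no source used here says whether the counting was by strand.

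Jak2 (chr19:29251803-29313095, plus strand), the kinase that works beside JAK1 on gp130, was read at much lower counts. The libraries labelled Cre+ held 16.7, 31.5 and 34.2 in the inputs and 55.0, 56.0 and 44.9 in the pull-downs. The groups did not overlap, and the log2 fold change was 0.92 ± 0.48 (FDR = 0.279). Those labelled Cre- held 29.7, 32.6 and 29.3 in the inputs and 35.5, 38.8 and 33.6 in the pull-downs. The groups again did not overlap, by a narrow margin (0.24 ± 0.21, FDR = 0.493), and with scaling by library size alone this difference was 0.00083.

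Tyk2 (chr9:21104068-21131393, minus strand), the third kinase of these receptors, was listed only in the table of the libraries labelled Cre-. The lowest count of any library in the other table is 5. In the table that lists Tyk2, the mean FPKM the authors give is 0.631, below the minimum of 1 used here, so it was not tested. Its counts were 52, 47 and 27 in the inputs and 32, 72 and 30 in the pull-downs. These are normalized counts of 5.10, 3.88 and 2.05 in the inputs and 1.79, 4.88 and 2.23 in the pull-downs, and the groups overlapped. Of its exons, 8.07% overlap 1700084C06Rik on the opposite strand.

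Socs3 (chr11:117966079-117970336, minus strand), the feedback inhibitor, did not pass in either comparison. Its normalized count with the label Cre+ was 20.3, 15.6 and 15.7 in the inputs and 3.44, 17.2 and 3.81 in the pull-downs. Pull-downs 1 and 3 lay below every input and pull-down 2 among them. The log2 fold change of -1.08 ± 0.77 had an FDR of 0.420, and without pull-down 2 it was -2.22 with an FDR of 0.0937. Without pull-down 1 it was -0.67 (FDR = 0.543) and without pull-down 3 it was -0.70 (FDR = 0.585). The inputs labelled Cre- held 13.91, 13.95 and 16.15 and the pull-downs 15.7, 20.5 and 13.9. These overlapped (0.19 on the log2 scale, FDR = 0.708). The pull-down labelled Cre+ in which Jak1 was nearest to its inputs, pull-down 2, was also that in which Socs3 was nearest.

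**Figure D2:**
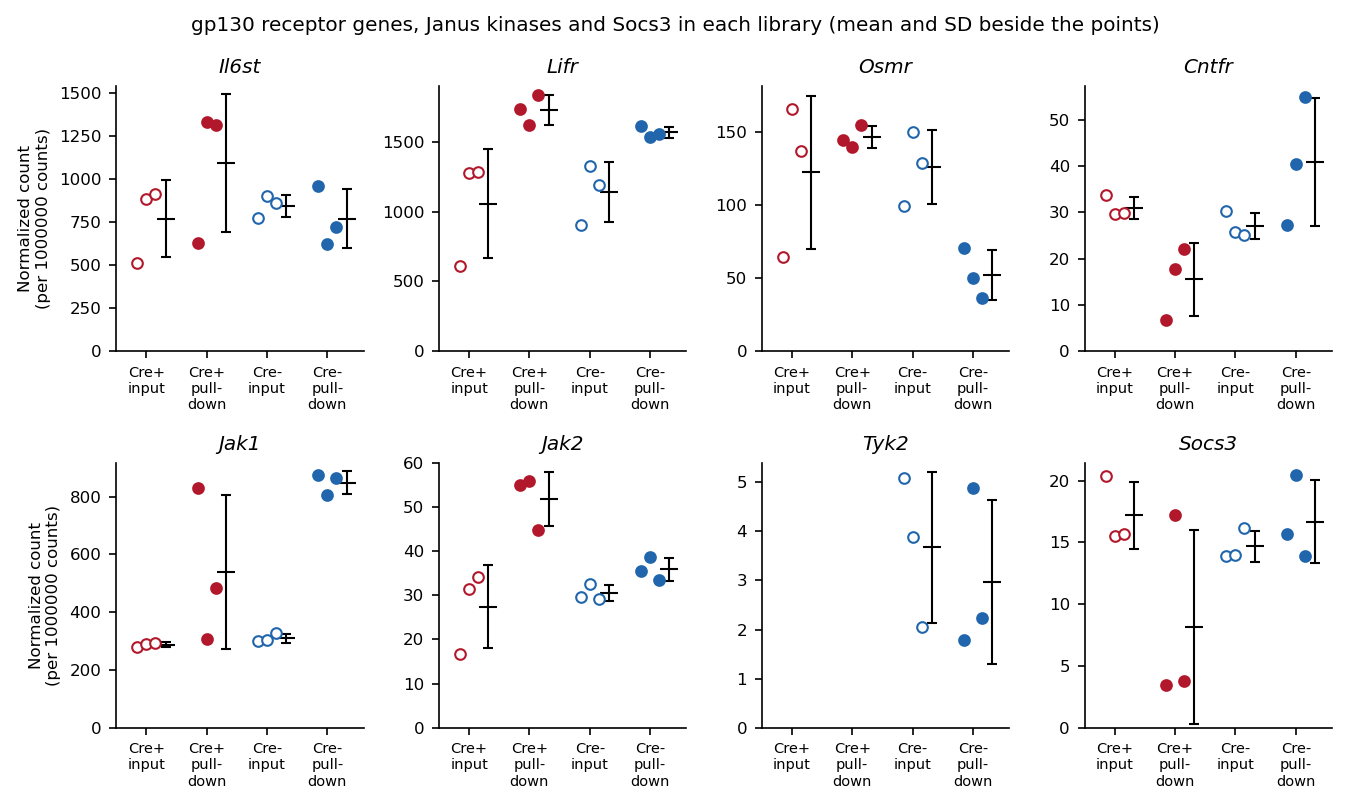
Normalized count (per 1000000 counts, linear axes from 0) of each gene in each library, open points for inputs and filled points for pull-downs, with libraries 1 to 3 from left to right and the mean ± SD beside them. Jak1 (804.6 to 876.7 against 298.8 to 328.0) and Osmr (36.5 to 70.4 against 99.5 to 150.1) stand apart from their inputs with the label Cre-.

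The interaction of genotype and fraction was fitted in all 12 libraries to test whether enrichment differed between labels, positive values meaning higher enrichment with the label Cre+. Of the 9006 genes tested, 2.30% were called with a higher enrichment in Cre+ and 2.0% in Cre-. None of the 7 genes was called, and 2 had an unadjusted p below 0.05, a share that was not counted over all genes. These were Osmr, at 1.56 ± 0.48 (FDR = 0.110 by edgeR), and Cntfr, at -1.56 ± 0.63 (FDR = 0.201). The FDR of Osmr ran from 0.0300 to 0.269 over the alternatives. It was called with DESeq2 (1.61), as was Cntfr (-1.53), and without any 1 of the pull-downs labelled Cre+ or without pull-down 1 labelled Cre-. Cntfr was called without pull-down 3 labelled Cre+ (-1.90), and Socs3 without pull-down 2 labelled Cre+ (-2.40). For Jak1, called with the label Cre- and not with the label Cre+, the difference was -0.52 ± 0.37 (FDR = 0.463), so its enrichment was not shown to differ. Without pull-down 1 labelled Cre+ the difference was -0.95 and passed the FDR cutoff (0.0408), under 2-fold, and without pull-down 2 labelled Cre+ it was -0.25 (FDR = 0.616). Socs3 had -1.22 ± 0.81 and Jak2 had 0.71 (FDR = 0.427 for both). Il6st had 0.68 ± 0.42 (FDR = 0.388), and Lifr had the smallest difference, 0.28 ± 0.35 (FDR = 0.684).

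**Figure D3:**
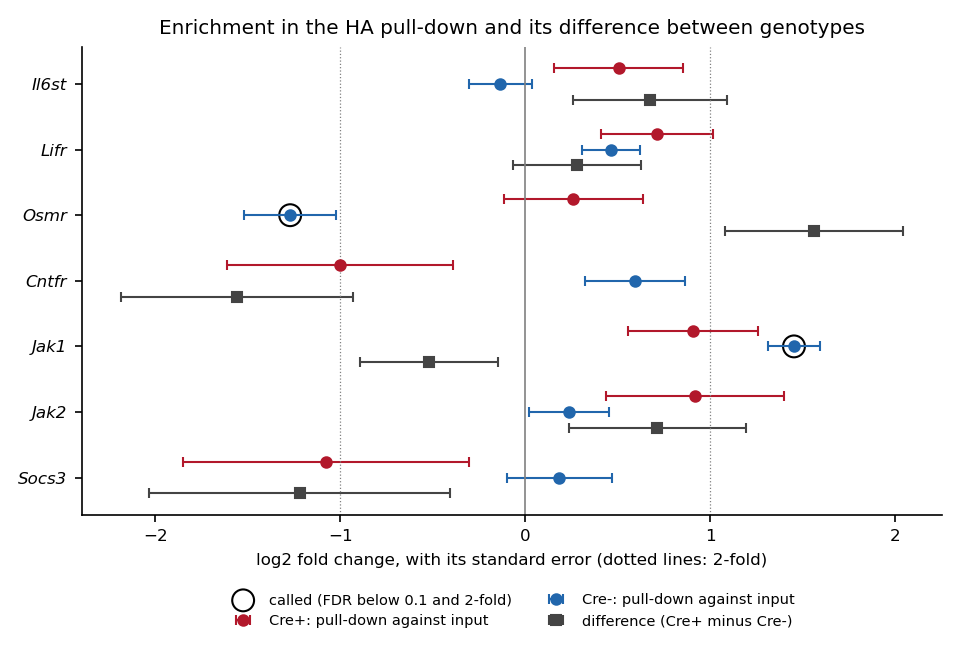
log2 fold change of pull-down against input with its standard error for the libraries labelled Cre+ and Cre-, and the difference between them, for the 7 tested genes. Circles mark the called values, Osmr at -1.27 and Jak1 at 1.45, both with the label Cre-, and Osmr and Cntfr have the differences farthest from 0, at 1.56 and -1.56.

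Around these 8 genes, 59 further genes of the pathway were taken as ligands, other receptors, kinase and STATs, the SHP2 and Ras arm, negative regulators and STAT3 targets. For the label Cre+, 39 were listed and tested, of which Sos1 was called enriched and Sprr1a depleted, against 4.72% and 2.19% of all genes tested. The median log2 fold change was -0.10 against 0.08 for all genes. For Cre-, 49 were listed and 46 tested. Every count listed for Cre+ was 5 or higher, whereas counts listed for Cre- went down to 0, so the labels do not cover the same genes. With the label Cre-, Ptpn2 was called enriched and Gal, Lif, Clcf1 and Il11ra1 depleted, against 6.01% and 5.83% of all genes. Of these, Gal, Clcf1 and Il11ra1 were not listed for Cre+. The median was -0.32 against -0.04 for all genes tested, with 13 values above 0 and 33 below. The difference between labels was called for 1 of 39 genes, Socs7, in the direction in which 2.30% of all genes were. Single libraries moved these counts. With the label Cre+, 0 genes were called in either direction without any 1 of the inputs, and 0 depleted without pull-down 3. Without pull-down 1, 4 were called enriched and 2 depleted, and without pull-down 2, 3 were called enriched. For Cre-, 11 were called depleted without pull-down 1, only Gal without pull-down 2, and Gal and Clcf1 without input 1. The enriched count there was 0 without input 3 and 2 without pull-down 1.

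Of the 11 ligand genes, Osm, Ctf1, Ctf2, Il27 and Ebi3 were in neither table. All 5 ligands tested with the label Cre- had a negative log2 fold change (median -1.36), and 2 were called depleted, against 5.83% of all genes. In 3 of the 5 every pull-down lay below every input, against 18.6% of all genes. Lif, a cytokine of injured nerve, fell from a normalized count of 29.9, 19.5 and 16.4 in the inputs to 13.2, 5.28 and 6.998 in the pull-downs. Its log2 fold change was -1.36 ± 0.39 (FDR = 0.0310 by edgeR), and it did not pass without input 1 (FDR = 0.127) or pull-down 2 (0.121). Clcf1, a ligand of the CNTF receptor, was read at 11, 54 and 56 counts in the inputs and 15, 7 and 13 in the pull-downs. Its normalized pull-down levels were all below its input levels (-2.09 ± 0.74, FDR = 0.0734), and it did not pass without input 2 (0.218), input 3 (0.209), pull-down 2 (0.201) or pull-down 3 (0.115). Nor did it pass with the count filter (FDR = 0.109), with no filter (0.112) or in a fit with the replicate number as a block (-1.92, FDR = 0.139). Il11, which signals through gp130 with its own binding subunit, was at -1.41 ± 0.57 (FDR = 0.112), and it was called depleted in the fit with the replicate block, by DESeq2, by the exact test, with scaling by library size alone and without pull-down 1. None of the 3 ligands tested with the label Cre+ was called, and none had an unadjusted p below 0.05. Lif was below its inputs in every pull-down there too, at -1.24 ± 0.66 (FDR = 0.285). Il6, the cytokine that names the family, was at 6, 8 and 10 counts in the inputs labelled Cre- and 10, 5 and 0 in the pull-downs, and its FPKM was below the filter. Of the marker sums with the label Cre-, given above, those of Schwann cells were lower in the pull-downs as well. Those of satellite glia, fibroblasts, macrophages and endothelial cells overlapped. The Schwann cell sums were also lower in the pull-downs with the label Cre+, where no ligand was called. The part of any of these cells was not tested.

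Of the 4 other receptor genes, Il11ra1, the binding subunit for IL-11, was called depleted with the label Cre-. Its counts were 83, 21 and 29 in the inputs and 16, 6 and 3 in the pull-downs, and every normalized pull-down level was below every input level (-2.93 ± 0.84, FDR = 0.0317). The first input was well above the others, and without it the gene did not pass (-1.91, FDR = 0.186), nor without pull-down 2 (FDR = 0.110). Il31ra, which pairs with OSMR, and Il6ra, the binding subunit for IL-6, were not called by edgeR in the 6 libraries of either label. With the label Cre+ Il31ra was at 12.7 ± 1.01 in the inputs and 35.9 ± 10.8 in the pull-downs, and Il6ra at 3.93 ± 1.16 and 12.2 ± 3.58. All pull-downs lay above all inputs for both, but neither passed the correction in edgeR (log2 fold changes 1.497 ± 0.54, FDR = 0.144, and 1.63 ± 0.65, FDR = 0.169). DESeq2 called both enriched, the fit of all 12 libraries called Il31ra, and Il6ra was called without pull-down 1. Their log2 fold changes with the label Cre- were -0.06 ± 0.41 (FDR = 0.937) and -0.56 ± 0.69 (FDR = 0.635). The differences between labels, 1.59 ± 0.64 for Il31ra and 2.23 ± 0.97 for Il6ra, did not pass in edgeR (FDR = 0.200 and 0.230), though that of Il31ra was called by DESeq2 and that of Il6ra without pull-down 1 labelled Cre-.

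No gene of the kinase and STAT list was called by edgeR in the 6 libraries of either label. Stat3, which carries the gp130 signal to the nucleus, had the highest normalized count of the list in the inputs, not corrected for length, at 447 ± 50.8 with the label Cre+ and 463 ± 52.4 with the label Cre-. Its pull-downs stood at 383 ± 74.3 and 542 ± 46.3, with log2 fold changes of -0.22 ± 0.25 (FDR = 0.625) and 0.23 ± 0.15 (FDR = 0.326). Stat2 and Stat6 followed in normalized count, and their FDR values were 0.184 or above in both comparisons. Without pull-down 1 labelled Cre-, Stat6 was called depleted with that label. In the SHP2 and Ras arm, through which gp130 reaches the MAP kinases, Sos1 was called with the label Cre+. This exchange factor for Ras rose from 174, 217 and 203 in the inputs to 598, 400 and 447 in the pull-downs. Its log2 fold change was 1.28 ± 0.26 (FDR = 0.0462 by edgeR), and it did not pass once any 1 of the inputs was left out (FDR 0.149 to 0.203). With the label Cre- it passed the FDR cutoff at 0.64 ± 0.17 (FDR = 0.0234), under 2-fold. Sos2 and Ptpn11, the gene for SHP2, were at 0.90 ± 0.32 (FDR = 0.140) and 0.50 ± 0.43 (FDR = 0.499) with the label Cre+.

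Among the 14 negative regulators, Ptpn2, a phosphatase of Janus kinases and STATs, was called enriched with the label Cre-. It was at 11.8, 5.94 and 5.38 in the inputs and 20.5, 15.5 and 17.9 in the pull-downs (1.23 ± 0.36, FDR = 0.0357), and it did not pass without input 2 (FDR = 0.127) or input 3 (0.129). Socs7, another member of the SOCS family, was the gene called in the difference between labels. The libraries labelled Cre+ held 76.0, 83.7 and 102 in the inputs and 179, 149 and 196 in the pull-downs (1.003 ± 0.30, FDR = 0.101 by edgeR), with every pull-down above every input. It was called there by DESeq2 (1.07, FDR = 0.0195), by the exact test, in the fit of all 12 libraries, with no robust estimation and without pull-down 1 or 2. Those labelled Cre- held 103, 109 and 104 in the inputs and 52.4, 121 and 78.2 in the pull-downs, where the groups overlapped (-0.33 ± 0.26, FDR = 0.416). The difference of 1.36 ± 0.40 had an FDR of 0.1, just under the cutoff before rounding, and it was lost without any 1 of the inputs (FDR 0.149 to 0.234). It was also lost without pull-down 1 (0.145) or pull-down 3 (0.238) of those labelled Cre-. Socs5 and Pias1, next in normalized count in the inputs, were not called with either label.

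The STAT3 target list holds genes with other regulators as well. Of 11 targets tested for Cre+ Sprr1a was called, and of 14 tested for Cre- Gal was called, both depleted, against 2.19% and 5.83% of all genes tested. Sprr1a, a small proline-rich protein known from regenerating sensory neurons, fell from 584, 517 and 632 in the inputs labelled Cre+ to 109, 279 and 253 in the pull-downs. Its log2 fold change was -1.43 ± 0.35 (FDR = 0.0696 by edgeR), and it did not pass without any 1 of the inputs (FDR 0.163 to 0.265) or without pull-down 3 (0.109). Gal, which encodes the neuropeptide galanin, fell from 16.0, 20.1 and 32.2 in the inputs labelled Cre- to 5.41, 5.35 and 5.29 in the pull-downs. All 3 pull-downs were nearly equal and below every input (-2.09 ± 0.34, FDR = 0.00152). Atf3, a transcription factor of injured neurons with the highest normalized count of the list in the inputs, was at 645 ± 36.8 in the inputs labelled Cre+ and 344 ± 129 in the pull-downs (-0.91 ± 0.31, FDR = 0.132). With the label Cre- it changed by -0.21 ± 0.15 (FDR = 0.374). Mcl1, which protects cells from apoptosis, was at 0.57 ± 0.40 (FDR = 0.414) and -0.43 ± 0.17 (FDR = 0.112).

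**Figure D4:**
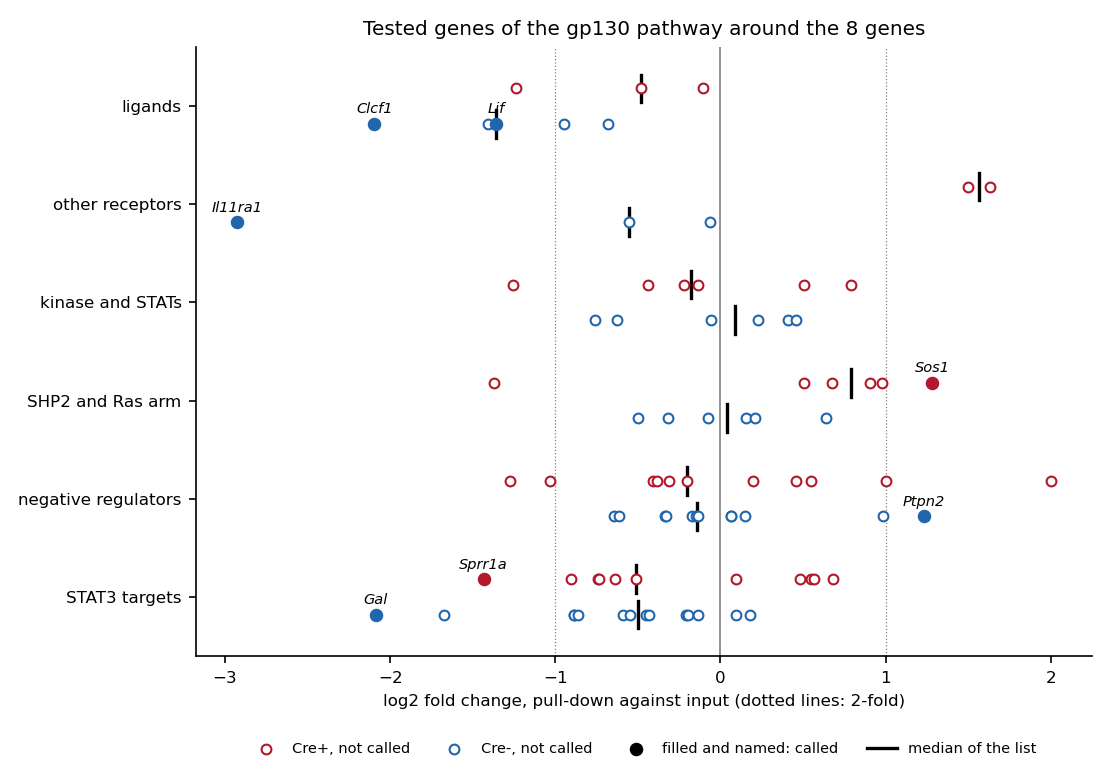
log2 fold change of pull-down against input of each tested pathway gene, by list, for the libraries labelled Cre+ and Cre-, with the median of each list as a black line and called genes filled and named. The lists of ligands, negative regulators and STAT3 targets have negative medians with both labels, at -0.48, -0.20 and -0.51 with Cre+ and -1.36, -0.14 and -0.50 with Cre-. These medians cover 3, 11 and 11 tested genes with Cre+ and 5, 12 and 14 with Cre-, so they are not of the same genes.

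Among the 9005 other genes of the joint fit, those whose centred log2 normalized counts followed Il6st most closely over the 12 libraries were Slc38a9, Zcchc6 and Gna13. Their root mean square differences from Il6st were 0.197, 0.200 and 0.209 on the log2 scale. Of its partners in the receptor complex, Lifr ranked 421 at 0.396, and Osmr ranked 2258 at 0.591. Jak2 ranked 468, Cntfr 5226, Jak1 5330 and Socs3 6353.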

How the data were processed

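RNA of cultured DRG neurons was sequenced as 3 HA pull-downs and 3 inputs per genotype, 12 libraries in all. The authors used STAR with its defaults to align reads to mm10 and HTSeq to count uniquely mapped reads per gene of the refFlat annotation, and 1 table of counts per genotype was deposited. These counts are whole numbers and not normalized. The authors also deposited the mean FPKM of each gene, used here only as a filter (above 1). Their columns of fold changes and p-values were not used, nor were 18 further columns of per-sample values. Columns of the table for Cre+ were assigned to its samples as a group, because the labels name the table and no single sample. Their numbers were used to tell libraries apart and not to pair them.

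Pull-down was tested against input within each genotype, and the interaction in all 12 libraries over genes in both tables, with edgeR 4.0.16 in R 4.3.3 (TMM, glmQLFit with robust estimation, glmQLFTest). P-values were adjusted by Benjamini-Hochberg over all genes tested. Genes were called at an FDR below 0.1 and a 2-fold change. The standard error is the log2 fold change divided by the square root of F. Depth was 8886308 to 18633365 counts per library. Intervals of such counts cover counting error only, since reads are not independent molecules. Scripts were tested on simulated data. The alternatives were DESeq2 1.42.0, scaling by library size alone, at least 10 counts in at least 3 libraries, no filter, the exact test, all 12 libraries in one fit, a replicate block, no fold limit and leaving out each library. A fit with no robust estimation was added after seeing the data.

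The members and lists were chosen with earlier results of these data known. Named are the 8 genes, the pathway genes called in any comparison, up to 3 per list with the highest normalized count in the inputs, Runx3, and the 3 genes nearest to Il6st. Of these, 1 gene is not reported. Coordinates are from RefSeq and merged exon lengths and overlaps from GENCODE, both on GRCm38.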

Additional observations from a re-analysis of the deposited data

Results flagged for a closer look

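Enrichment of Socs7 differed between the labels by the interaction test, at 1.36 on the log2 scale (FDR = 0.1, just under the cutoff before rounding). Neither label alone passed, at 1.003 with the label Cre+ (FDR = 0.101 by edgeR) and -0.33 with the label Cre- (FDR = 0.416), though Socs7 was called with the label Cre+ by DESeq2 (FDR = 0.0195), the exact test (0.0879), the fit of all 12 libraries (0.0251), with no robust estimation (0.0991) and without pull-down 1 (0.0556) or 2 (0.0929). The call of the difference was lost without any 1 of the 6 inputs, without pull-down 1 or 3 labelled Cre-, with scaling by library size alone, with either other filter and with no robust estimation.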

How the results depend on the processing

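Over the alternatives, 542 values of single genes kept their direction and their side of the cutoff, 36 lost their call, 18 gained one and 10 changed sign. Jak1 and Osmr with the label Cre- stayed called in all. The causes of the changes below were not tested. Scaling by library size alone moved the median of all genes by -0.44 with the label Cre+, -0.23 with the label Cre- and -0.24 for the difference. It turned Osmr with the label Cre+ to -0.1863, Socs3 with the label Cre- to -0.05332 and the Lif difference to -0.08763. It left 0 pathway genes enriched with either label or in the difference, 3 depleted with the label Cre+ and 7 with the label Cre-.

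DESeq2 called 5 pathway genes enriched with the label Cre+, 2 with the label Cre- and 3 in the difference, and of the 8 genes Osmr (1 higher) and Cntfr (1 lower) in the difference. The exact test called 3 pathway genes enriched with the label Cre+. All 12 libraries in one fit called 4 enriched and 2 depleted with the label Cre+, and 0 of either with the label Cre-. There Lif (-1.39, FDR = 0.192 by edgeR) and Ptpn2 (1.20, FDR = 0.404) lost their calls, and Gal, Clcf1 and Il11ra1, listed in 1 table alone, were not in the fit. With no robust estimation, 2 were enriched with the label Cre+ and 0 called in the difference. The filter on 10 counts and no filter both gave 0 in the difference. With no fold limit, 2 of the 8 genes and 3 pathway genes were enriched with the label Cre-.

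With each library left out, the 8 genes gave 0 to 1 enriched and 0 to 1 depleted with the label Cre+, and likewise in the difference. Pathway genes gave 0 to 4 enriched and 0 to 2 depleted with the label Cre+, 0 to 2 and 1 to 11 with the label Cre-, and 0 to 5 and 0 to 1 in the difference. Osmr with the label Cre+ ran from -0.04533 to 0.5434, Ptpn2 with the label Cre+ from -0.81 to 0.19 with a reversal also at 0.07, and the Lif difference from -0.27 to 0.62 with reversals also at -0.06, -0.13 and -0.09.

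With the label Cre-, same-numbered pull-down and input deviations correlated at 0.0674, 0.0284 and 0.124, and every sample correlated best with its own number. Values this low neither show nor exclude a pairing by number. The main test took no account of such a pairing, which was fitted as the replicate block. With the replicate block, 1 of the 8 genes was enriched (Jak1, 1.45), 1 was depleted (Osmr, -1.31), and 1 pathway gene was enriched and 6 were depleted, Clcf1 no longer among them and Il11, Ccnd1 and Cebpd added. No paired analysis was run for the label Cre+. Its columns could be matched to samples only as a group, and whether their numbers pair inputs with pull-downs was not tested. Low counts limit Tyk2, Clcf1, Il11ra1 and Il6.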
